A study of Homo sapiens with 6 samples.

Results

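The gene expression of PA-1 cells transfected with a RIPK4 plasmid was set directly against that of PA-1 cells exposed to Wnt3a. The comparison takes every gene whose mean over the 6 libraries of the study was at least 1 RPKM (read density scaled for transcript length and library size), leaving out RIPK4 itself. This rule kept 11880 of the 20494 genes in the table, measured in 2 of the 6 libraries. Just below the limit lay PLEKHN1 and CDNF, both with a mean of 0.9997 RPKM, and just above it lay AOC2 (1.0016) and ADORA2A (1.0018).

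PA-1 is an established human ovarian teratocarcinoma line that keeps many traits of pluripotent embryonal cells. Total RNA was sequenced in 1 library per condition. The RIPK4 cells received 8 µg of plasmid and were collected after 48 h, as were the cells given empty pCDNA3.1 vector (the Vector library) and the cells given RIPK1, RIPK2 or RIPK3. The Wnt3a cells received 200 ng of ligand for 16 h, and the labels do not say whether they also received a plasmid. All 6 libraries came from the same line, grown in the same serum-containing medium. Ligand, plasmid and time differ at once between the libraries compared, so their parts in any difference cannot be told apart.

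Wnt3a is a secreted ligand that engages Frizzled receptors and the co-receptors LRP5 and LRP6, which halts the breakdown of beta-catenin and lets it act with TCF/LEF factors on target genes. Many of these targets encode inhibitors that feed back on the pathway. RIPK4 is a serine/threonine kinase of the receptor-interacting family, known from epidermal differentiation and placed upstream of beta-catenin through phosphorylation of Dishevelled proteins. Cells also answer foreign nucleic acid with type I interferon, whose receptor signals through STAT and IRF proteins to antiviral genes.

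With no replicate in either condition, no SD or p-value can be given, and each statement compares libraries, not conditions. Levels are RPKM as deposited. Differences are log2(RPKM + 1) of RIPK4 minus the same for Wnt3a. This scale makes differences at low levels look smaller, and all counts of genes past 1.5-fold or 2-fold are made on it. A ratio printed for a gene is instead that of its RPKM, with an exact 95% counting interval from the reads of both libraries, which covers counting error only. No interval is given for comparisons with Vector or the other kinases, so an order among those libraries is a description. The library totals, recovered from the values, were about 18300000 reads for RIPK4 and 18500000 for Wnt3a, and all 6 lay between 17200000 and 19500000.

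The libraries were checked ahead of the comparison. RIPK4 stood at 17.9 RPKM (about 1272 reads) where its plasmid was given and at 0 with Wnt3a. Its level was 429 times a floor of 3 reads there, and the two-sided counting interval of the ratio had a lower limit of 348. Of 12 genes typical of PA-1 and embryonal carcinoma cells, 11 were kept, with a summed level of 1024 RPKM with RIPK4 and 968 RPKM with Wnt3a. TDGF1 was listed at 0 in all 6 libraries. Of 14 haematopoietic markers 1 was kept, and PTPRC, GATA1, HBB and HBG1 were at 0 in both libraries. Summed endothelial markers stood at 89.8 and 96.5 RPKM, fibroblast and mesenchymal markers at 2497 and 2634 RPKM, and trophoblast and extraembryonic endoderm markers at 43.6 and 44.5 RPKM, each with RIPK4 named before Wnt3a.

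Most genes lay close together in the RIPK4 and Wnt3a libraries. The median difference was 0.023, the 5th and 95th percentiles were -0.31 and 0.40, and 98% of genes were within 1.5-fold. A difference above 0 was found for 54.9% of genes and one below 0 for 45.1%. At least 1.5-fold higher with RIPK4 were 163 genes (1.37%), and at least 1.5-fold lower were 79 (0.665%). The 2-fold line was passed upward by 35 genes (0.295%) and downward by 17 (0.143%). Protein-coding genes made up 25 of the 35 higher genes but 3 of the 17 lower ones, and the remaining 24 genes were small RNAs.

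Differences also moved with base composition. The 20% of genes with the lowest transcript GC content had a median difference of 0.17, and the 20% with the highest had -0.03 (Spearman rho -0.347 across 11778 genes, which are not independent replicates). With a smooth trend on GC removed, 29 genes passed 2-fold on the RIPK4 side and 19 on the Wnt3a side. Values without the trend are given below for genes that crossed the 2-fold line.

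**Figure D1:**
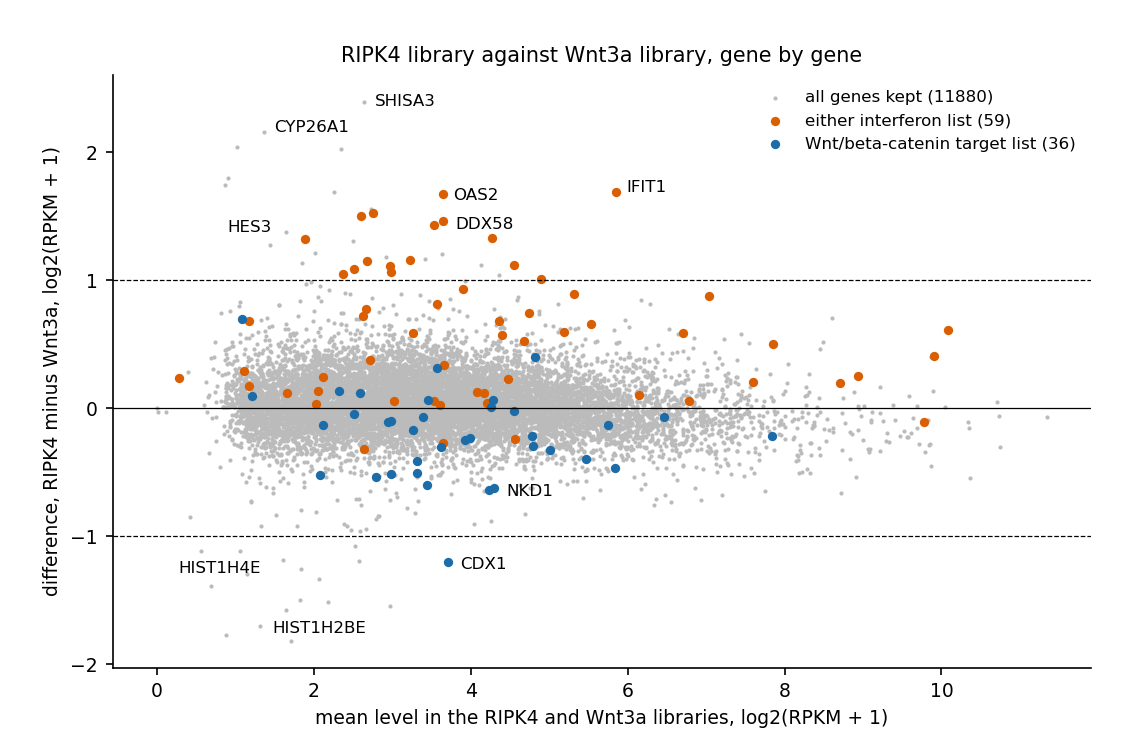
Difference of log2(RPKM + 1), RIPK4 minus Wnt3a (vertical axis), against the mean level of both libraries on the same scale (horizontal axis) for 11880 genes, with dashed lines at 2-fold. Members of either interferon list (orange, 59 genes) spread above 0, Wnt/beta-catenin targets (blue, 36 genes) lay mostly below 0, and CDX1 was the single blue gene beyond the lower line.

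Interferon-stimulated genes formed the largest block among the higher genes. Of the 25 protein-coding genes at least 2-fold higher with RIPK4 than with Wnt3a, 16 (64%) belonged to the lists of interferon-stimulated genes or of interferon signalling and RNA sensing. These lists hold 59 of the 11880 genes kept. Their members were chosen with earlier results of these data known, so the overlap is a description and not a test. In the interferon-stimulated list 37 of 47 genes were kept. Of these, 36 were higher with RIPK4 (beside 54.9% of all genes) and 1 was lower, with a median difference of 0.75. At least 1.5-fold higher were 26 of the 37 (beside 1.37% of all genes). At least 2-fold higher were 14 (37.8%, beside 0.295% of all genes), with no member as far on the other side.

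The upstream sequence of several of these genes is shown because many members of the list share a short element there. The interferon-stimulated response element, a site bound by IRF proteins and their complexes, was searched as GAAA, any 2 bases (NN) and GAAA again, on both strands in RefSeq promoters of build GRCh38.p14, from 250 bases before to 50 bases after the start. RefSeq promoters were matched for 9569 of the 11880 genes. The letters were found in 19 of 30 kept interferon-stimulated genes with a promoter (63.3%), in 347 of the 9569 genes kept (3.63%) and in 1195 of 27305 promoters in all (4.38%). They were found in 8 of 11 promoters of list members at least 2-fold higher and in 11 of 19 of the other members. A match is a description of letters and not a binding site. The windows below run 5′ to 3′ on the gene's strand and lie wholly before its start, with matches on either strand in capitals and runs of capitals beyond 10 letters marking overlapping matches.
IFIT1 (chr10:89392487-89392549, plus strand): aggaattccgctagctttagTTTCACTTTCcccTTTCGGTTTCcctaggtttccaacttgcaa
IFIT3 (chr10:89327821-89327904, plus strand): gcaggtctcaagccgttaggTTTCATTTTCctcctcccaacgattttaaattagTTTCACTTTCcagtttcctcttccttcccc
IFIT5 (chr10:89414503-89414567, plus strand): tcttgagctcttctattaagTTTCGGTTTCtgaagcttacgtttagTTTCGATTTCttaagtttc
PLSCR1 (chr3:146544657-146544706, minus strand): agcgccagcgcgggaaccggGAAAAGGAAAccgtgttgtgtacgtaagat
SAMD9 (chr7:93118086-93118135, minus strand): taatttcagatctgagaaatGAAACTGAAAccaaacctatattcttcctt
ISG15 (chr1:1013364-1013419, plus strand): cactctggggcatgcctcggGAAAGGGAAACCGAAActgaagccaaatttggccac
IFITM3 (chr11:320866-320932, minus strand): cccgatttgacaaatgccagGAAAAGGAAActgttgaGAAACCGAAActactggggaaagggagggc
IFIT1, IFIT3, IFIT5, PLSCR1 and SAMD9 were at least 2-fold higher with RIPK4, ISG15 was 1.52-fold higher, and IFITM3 was the single kept member that was lower. The element was thus present at both ends of the range of differences. No promoter was matched for OAS2, OASL and IFIT2.

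The IFIT genes encode proteins that bind foreign RNA and block its translation. IFIT1 was at 102 RPKM with RIPK4 (about 8677 reads) and 31.2 RPKM with Wnt3a (about 2671 reads), a ratio of 3.28 (3.14 to 3.43), with 152 RPKM in the Vector library, 29.1 with RIPK1, 196 with RIPK2 and 239 with RIPK3. IFIT3 stood at 10.4 and 2.97 RPKM (3.50-fold, 2.91 to 4.24). Wnt3a was thus close to RIPK1 for both genes. RIPK4 lay below Vector in IFIT1 and was close to Vector (11.6 RPKM) in IFIT3. IFIT5 (12.9 and 5.25 RPKM) and IFIT2 (7.34 and 2.92 RPKM) were 2.46-fold (2.19 to 2.78) and 2.51-fold (2.12 to 2.99) higher with RIPK4. Vector was at 19.1 RPKM for IFIT5 and 4.68 RPKM for IFIT2, so RIPK4 lay below Vector in IFIT5 and above it in IFIT2. All 4 genes overlap LIPA in the annotation, and reads of overlapping genes may be split between them.

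The OAS genes encode enzymes that make 2′-5′-linked oligoadenylate, the activator of RNase L. OAS2 was at 21.3 RPKM with RIPK4 and 5.99 RPKM with Wnt3a (3.55-fold, 3.26 to 3.87), with 22.5 RPKM in Vector, 1.99 with RIPK1, 48.8 with RIPK2 and 58.9 with RIPK3. OASL was at 9.21 and 2.61 RPKM (3.53-fold, 2.77 to 4.52) and OAS1 at 29.6 and 11.2 RPKM (2.65-fold, 2.39 to 2.94). OAS3 reached 1.89-fold (1.82 to 1.96), at 53.4 and 28.3 RPKM. Vector was at 3.47 RPKM for OASL, 31.2 for OAS1 and 34.8 for OAS3. RIPK4 thus lay above Vector in OASL and OAS3 and close to it, on the lower side, in OAS2 and OAS1. All 4 OAS genes were higher with RIPK4 than with Wnt3a, and all were lowest in the RIPK1 library.

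Other effectors at least 2-fold higher had ratios from 2.07 to 3.62. DTX3L, a ubiquitin ligase, and its partner PARP9 overlap in the annotation and stood at 18.0 against 6.07 RPKM (2.97-fold, 2.71 to 3.25) and 10.4 against 4.46 RPKM (2.33-fold, 2.13 to 2.56). XAF1, a pro-apoptotic factor, was at 4.83 and 1.33 RPKM (3.62-fold, 2.98 to 4.43). The nuclear body protein SP110 was 2.59-fold higher (2.17 to 3.10), the scramblase PLSCR1 2.25-fold (2.07 to 2.45) and the antiviral factor SAMD9 2.43-fold (2.20 to 2.69). EIF2AK2, which encodes the double-stranded RNA kinase PKR, was at 41.1 and 19.9 RPKM (2.07-fold, 1.92 to 2.23). SP110 overlaps SP140 and EIF2AK2 overlaps GPATCH11 in the annotation, so their reads may be split as well. With the GC trend removed, EIF2AK2 (0.91), SAMD9 (0.92) and IFIT5 (0.99) had differences under the 2-fold line.

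Several abundant members of the list were less than 2-fold apart. ISG15, a ubiquitin-like modifier, stood at 1345 RPKM with RIPK4 and 882 RPKM with Wnt3a (1.52-fold, 1.49 to 1.56), and IFI6 at 1099 and 828 RPKM (1.33-fold, 1.3 to 1.36). IFITM1 was 1.19-fold higher (1.15 to 1.23) and IFITM2 1.04-fold (0.969 to 1.12). IFITM3, which blocks entry of enveloped viruses, was at 843 RPKM with RIPK4 and 911 RPKM with Wnt3a, 1.08-fold lower (1.05 to 1.11). These genes span the range from no resolvable difference in counting terms to about 1.5-fold, while IFIT1, IFIT3, OAS2 and OASL were above 3-fold. In Vector, ISG15 stood at 849 RPKM and IFI6 at 896 RPKM, so RIPK4 lay above Vector in both.

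The RNA sensor genes DDX58 and IFIH1 were higher with RIPK4, and the transcription factors were mixed. In the list of interferon signalling and RNA sensing 22 of 26 genes were kept. Of these, 19 were higher with RIPK4 (beside 54.9% of all genes) and 3 lower, with a median difference of 0.13. DDX58, the cytoplasmic RNA sensor RIG-I, was at 19.8 RPKM with RIPK4 and 6.54 RPKM with Wnt3a (3.02-fold, 2.76 to 3.31), and IFIH1, the sensor MDA5, at 6.45 and 2.61 RPKM (2.47-fold, 2.09 to 2.94). IRF7 was 1.65-fold higher (1.49 to 1.82), IRF9 1.52-fold (1.38 to 1.67) and STAT2 1.18-fold (1.11 to 1.26). IRF3, which switches on interferon genes, was at 20.7 RPKM with RIPK4 and 24.7 with Wnt3a (1.19-fold lower, 1.1 to 1.29), and IRF1 was at 3.12 and 3.03 RPKM, within counting error (interval of the ratio 0.851 to 1.24). The receptor chain IFNAR2 was 1.3-fold lower (1.11 to 1.52) and IFNAR1 1.25-fold higher (1.08 to 1.44), so the receptor genes did not share a direction. IFNB1, the interferon gene itself, lay below the expression limit with 5 reads with RIPK4 (0.325 RPKM) and 0 with Wnt3a, beside 0.276 RPKM in Vector, 1.79 with RIPK2 and 1.06 with RIPK3.

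Placed among all 6 libraries, the interferon-stimulated list did not peak with RIPK4. Its median level on the log2(RPKM + 1) scale was 4.94 with RIPK4 and 3.61 with Wnt3a, beside 5.01 in Vector, 3.09 with RIPK1, 5.56 with RIPK2 and 5.82 with RIPK3. RIPK4 was the highest library for 2 of the 37 genes and Wnt3a for none, beside 1301 and 2767 of all 11880. Wnt3a was the lowest for 9 of the 37 and RIPK1 for 28, beside 2650 and 2496 of all. The Wnt3a count was thus near its share over all genes, and the RIPK1 count was above its share. For 22 of the 37 genes the levels ran from Vector down through RIPK4 to Wnt3a, an order seen in 3324 of all 11880 genes. With the GC trend removed, the list median was 0.68 and 11 genes were at least 2-fold higher. The Wnt3a library is also the one with no plasmid recorded, and the part of this in the result was not tested.

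**Figure D2:**
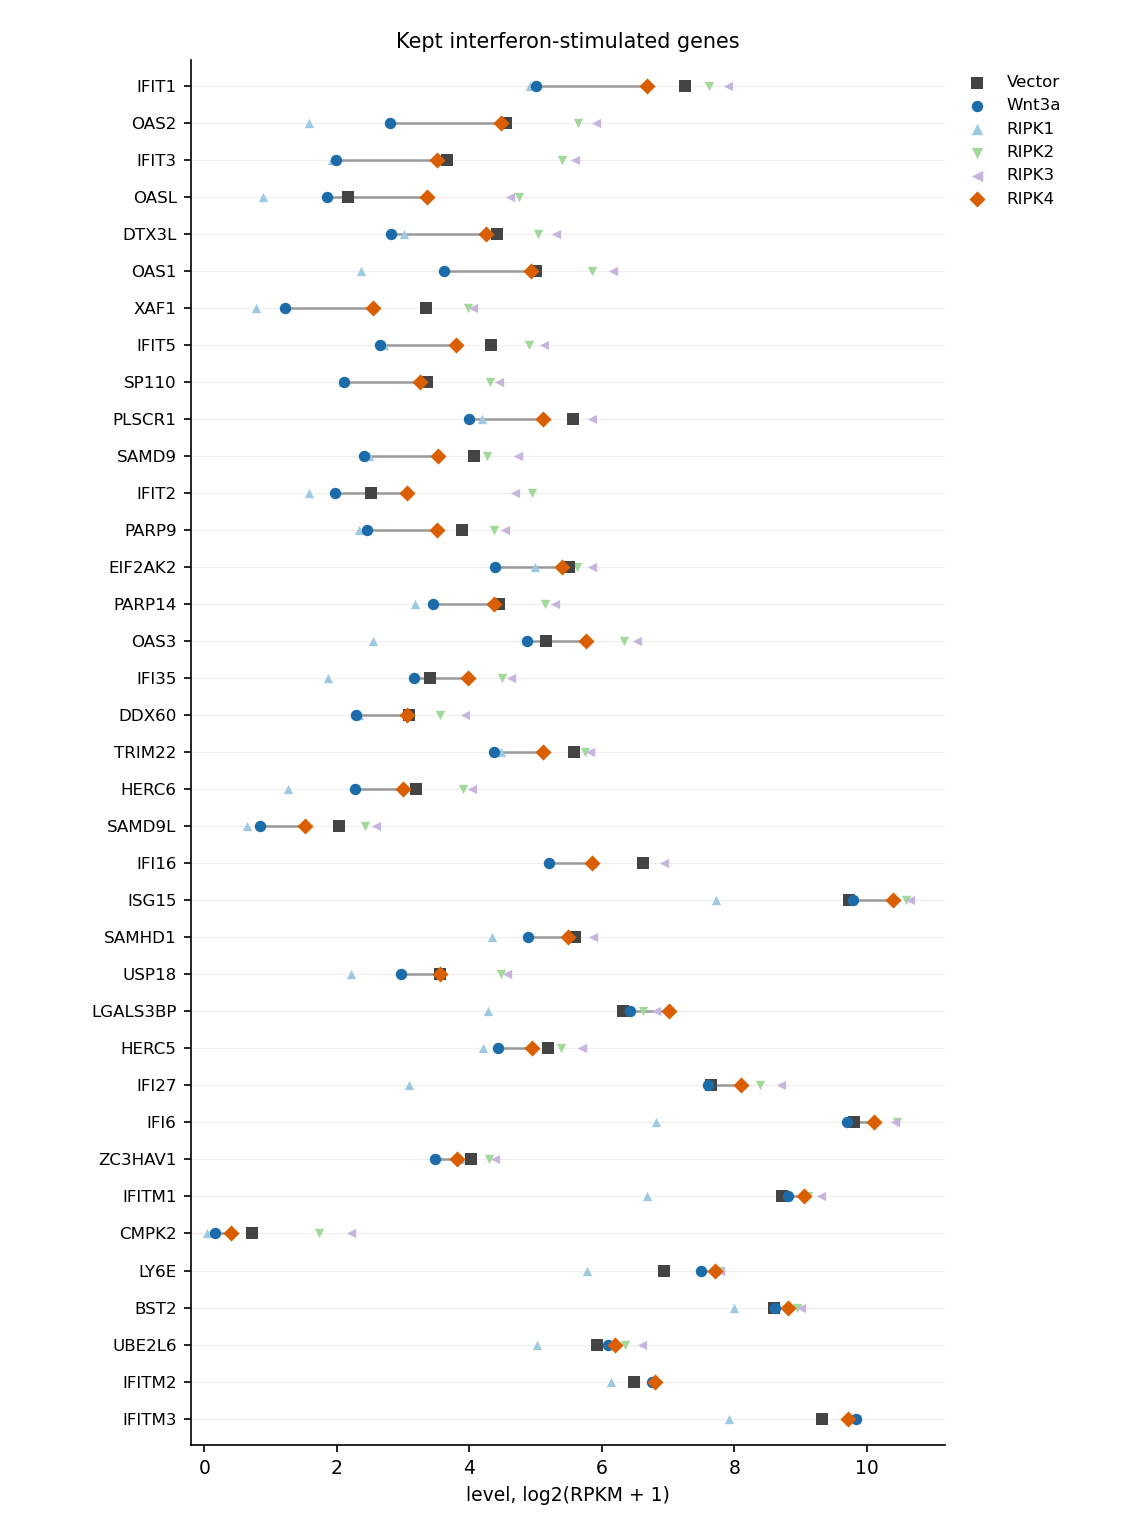
Level of the 37 kept interferon-stimulated genes on the log2(RPKM + 1) scale in each of the 6 libraries, ordered by the difference of RIPK4 minus Wnt3a, with a grey line joining those 2 libraries. RIPK4 (orange diamonds) stood right of Wnt3a (blue circles) in 36 genes and left of it in IFITM3, and RIPK2 and RIPK3 lay mostly further right.

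Wnt/beta-catenin targets stood the other way. Of 57 listed genes 36 were kept. Of these, 27 were lower with RIPK4 than with Wnt3a (beside 45.1% of all genes) and 9 were higher. The median difference was -0.19 beside 0.023 for all genes. At least 1.5-fold lower were 4 of the 36 (beside 0.665% of all genes) and 1 was at least 1.5-fold higher (beside 1.37%). With the GC trend removed the lower count was 2 of 36, with NKD1 (-0.57) and RNF43 (-0.53) under the 1.5-fold line. CDX1 was the only member 2-fold apart. Wnt3a was the highest of the 6 libraries for 24 of the 36 genes and RIPK4 for 4, beside 2767 and 1301 of all 11880.

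All 9 kept feedback inhibitors were lower with RIPK4 than with Wnt3a and all 9 were higher with RIPK4 than in Vector. NKD1, which binds Dishevelled and dampens the signal, was at 23.4 RPKM with Wnt3a, 14.8 RPKM with RIPK4 and 4.39 RPKM in Vector, and at 3.98 to 5.57 RPKM with the other kinases. It was 1.58-fold lower with RIPK4 than with Wnt3a (1.43 to 1.73). RNF43, a ubiquitin ligase that removes Frizzled from the surface, was at 12.4, 7.84 and 3.28 RPKM in the same order (1.58-fold lower, 1.45 to 1.72). RIPK4 lay between Vector and Wnt3a for both.

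The other feedback inhibitors were nearer. NOTUM, an enzyme that strips the lipid from Wnt proteins, was at 10.8 RPKM with Wnt3a, 7.36 with RIPK4 and 2.07 in Vector (1.47-fold lower with RIPK4 than with Wnt3a, 1.27 to 1.71). DACT1, a Dishevelled antagonist, was at 66.2, 47.6 and 16.0 RPKM (1.39-fold lower, 1.33 to 1.45). AXIN2, the scaffold of the destruction complex often used as a reporter of the pathway, was at 35.1, 27.8 and 14.7 RPKM (1.26-fold lower, 1.2 to 1.33). APCDD1 (1.2-fold, 1.08 to 1.34) and TNFRSF19 (1.19-fold, 1.11 to 1.27) were lower with intervals that leave out 1. NKD2 (1.14-fold, 0.97 to 1.34) and ZNRF3 (1.08-fold, 0.984 to 1.2) were lower by amounts within counting error. The median difference of the 9 genes was -0.33, and -0.28 with the GC trend removed. DKK1 was at 0 in both libraries. With RIPK1, RIPK2 and RIPK3, NOTUM was at 1.34, 4.91 and 4.92 RPKM, DACT1 at 14.9, 18.2 and 20 RPKM and AXIN2 at 16.7, 14.1 and 16.7 RPKM. NOTUM was thus also above Vector with RIPK2 and RIPK3.

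Among transcription factors in the list, 14 were kept, and RIPK4 was the lower library for 9 and the higher for 5 (median difference -0.17). CDX1, a caudal homeobox gene of the posterior embryo, was at 18.8 RPKM with Wnt3a (618 reads), 7.61 RPKM with RIPK4 (247 reads) and 0.0327 RPKM in Vector (1 read), and at 0 to 0.237 RPKM with the other kinases. It was 2.48-fold lower with RIPK4 than with Wnt3a (2.13 to 2.88), so both libraries stood far above the remaining 4. CDX2, its paralogue, was at 8.48 and 5.64 RPKM (1.5-fold lower, 1.26 to 1.79), with 0.638 RPKM in Vector.

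LEF1, through which beta-catenin reaches DNA, was at 7.31 RPKM with Wnt3a, 4.73 with RIPK4 and 2.75 in Vector (1.55-fold lower with RIPK4 than with Wnt3a, 1.34 to 1.78). TCF7, another partner, was at 10.4, 7.60 and 4.59 RPKM (1.37-fold lower, 1.25 to 1.52). The homeobox genes MSX1 (49.8, 37.6 and 5.90 RPKM) and MSX2 (29.6, 24 and 18.8 RPKM) were 1.32-fold (1.23 to 1.42) and 1.23-fold (1.13 to 1.34) lower. These 4 genes had RIPK4 between Vector and Wnt3a. With RIPK1, RIPK2 and RIPK3, MSX1 was at 3.71, 17.4 and 18.2 RPKM and MSX2 at 15.8, 28.3 and 26.4 RPKM. In the same order LEF1 was at 2.95, 3.92 and 4.09 RPKM and TCF7 at 4.19, 4.97 and 5.16 RPKM. RIPK2 and RIPK3 were thus also above Vector in all 4 genes, and above RIPK4 in MSX2. MYC and SOX4 went the other way, being 1.26-fold (1.12 to 1.43) and 1.33-fold (1.26 to 1.41) higher with RIPK4, and both were lower with Wnt3a (9.70 and 23.5 RPKM) than in Vector (15.2 and 35.9 RPKM). SP5 had 5 reads with RIPK4 and 7 with Wnt3a, and T, which encodes brachyury, had none in either.

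The 13 kept receptors, ligands and other targets split into 9 that were lower with RIPK4 and 4 that were higher (median -0.071). GAD1, which makes the transmitter GABA, was at 22.4 RPKM with Wnt3a, 14.1 with RIPK4 and 9.13 in Vector (1.6-fold lower, 1.47 to 1.73). FGF18 was at 4.07, 2.52 and 1.84 RPKM (1.61-fold lower, 1.19 to 2.20), and CCND1, which encodes cyclin D1, at 246, 211 and 160 RPKM (1.16-fold lower, 1.14 to 1.19). CCND1 also stood at 246 RPKM with RIPK2 and 244 with RIPK3, above RIPK4, and at 122 with RIPK1. FGF18 stood at 1.96 to 2.25 RPKM with these kinases. FGF8 lay below the expression limit at 2.79 and 1.19 RPKM. GDF3, a TGF-beta family ligand also on the pluripotency list, was the member at least 1.5-fold higher, with 38 reads with RIPK4 (1.70 RPKM) and 15 with Wnt3a (0.662 RPKM).

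The 3 libraries Vector, RIPK4 and Wnt3a most often stood in 1 order in the Wnt list. Levels ran from Vector up through RIPK4 to Wnt3a in 25 of the 36 genes, beside 3408 of all 11880. That order held in all 9 feedback inhibitors, in 8 of 14 transcription factors and in 8 of 13 other targets. The median level of the list on the log2(RPKM + 1) scale was 3.75 with Wnt3a, 3.48 with RIPK4 and 2.9 in Vector. It was 2.72 with RIPK1, 2.93 with RIPK2 and 2.92 with RIPK3, although single members stood higher with RIPK2 and RIPK3 than in Vector. With the GC trend removed, 27 of the 36 genes were below 0 and the list median was -0.17. A TCF/LEF core, searched as CTTTGAT on both strands of the same promoters, was found in 1 of 26 list members with a promoter (3.85%, in FGF18), in 2.04% of genes kept and in 3.18% of all promoters. In FGF18 the letters stand in this window, which is shown as the single match of the list.
FGF18 (chr5:171419453-171419499, plus strand): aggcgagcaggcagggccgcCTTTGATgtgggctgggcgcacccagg
Absence of these letters says only that they are not in this window.

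**Figure D3:**
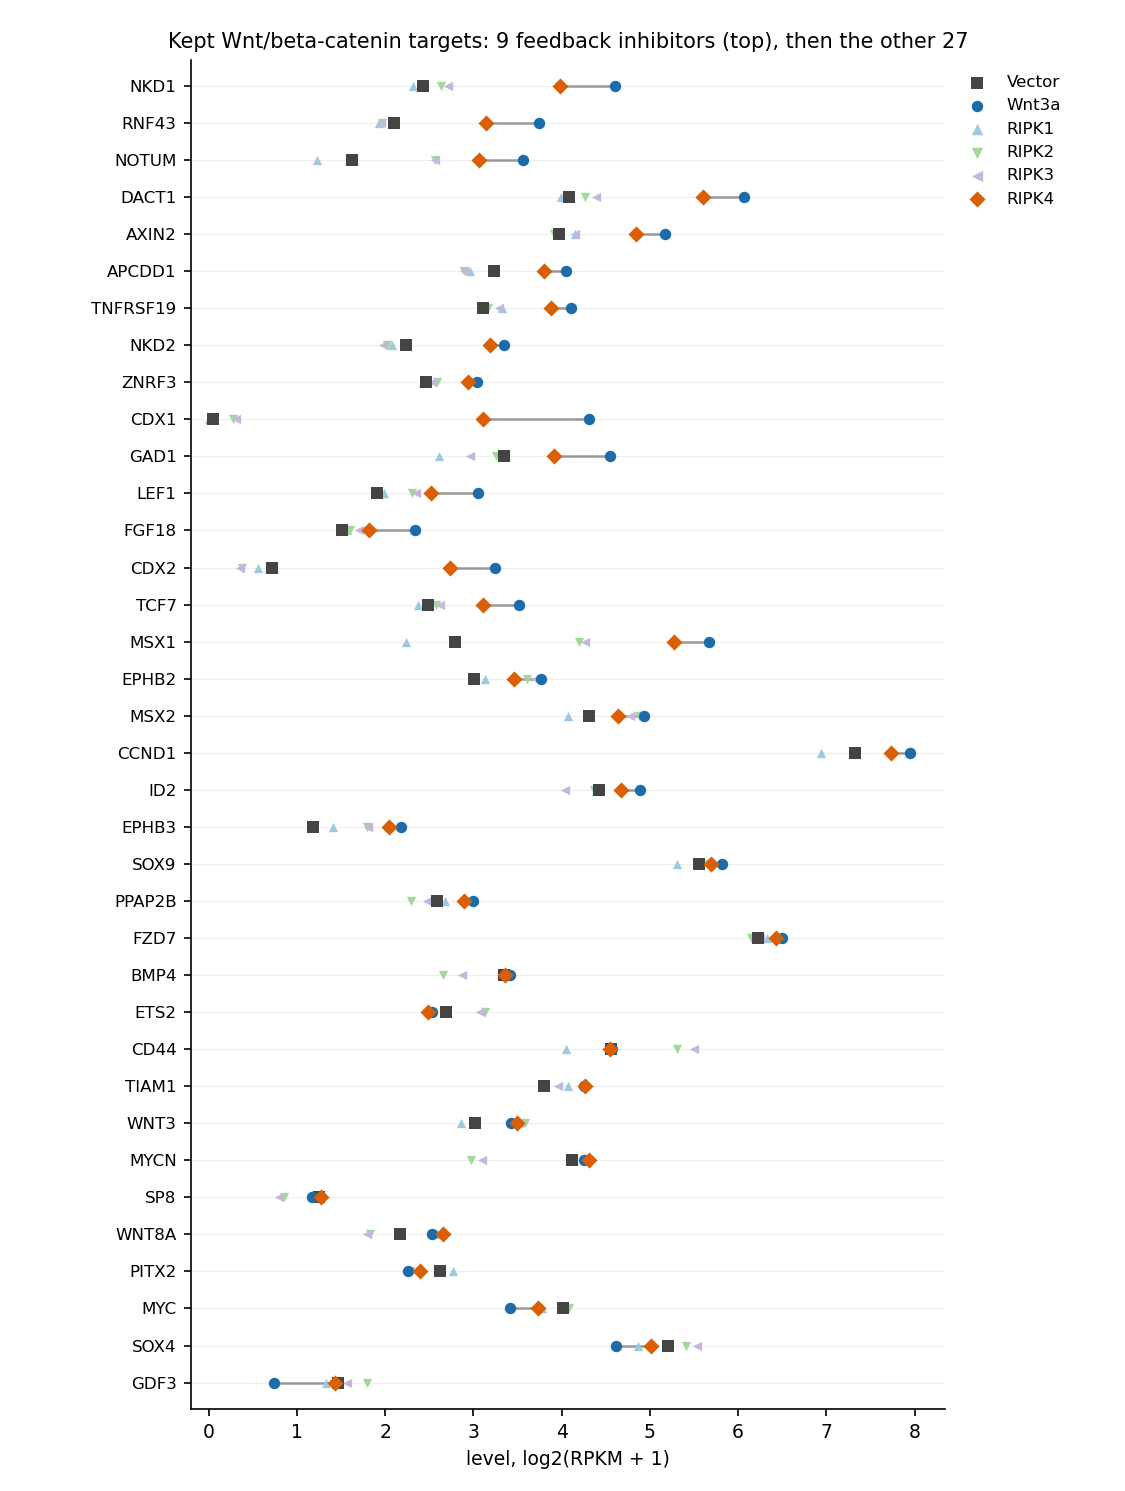
Level of the 36 kept Wnt/beta-catenin targets on the log2(RPKM + 1) scale in each of the 6 libraries, the 9 feedback inhibitors on top and the other 27 below, each block ordered by the difference of RIPK4 minus Wnt3a. A grey line joins RIPK4 (orange diamonds) and Wnt3a (blue circles). In all 9 feedback inhibitors Vector (dark squares) lies left of RIPK4 and RIPK4 left of Wnt3a, and CDX1 has the longest line.

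The components that carry the Wnt signal differed little. Of 15 kept receptors and co-receptors 9 were higher with RIPK4 and 6 lower (median 0.099), and 1 was at least 1.5-fold apart. That gene was LGR4, the R-spondin receptor, at 37.1 RPKM with RIPK4, 21.4 with Wnt3a and 53.8 in Vector (1.73-fold higher with RIPK4 than with Wnt3a, 1.64 to 1.83). FZD5 was 1.56-fold higher (1.33 to 1.83), and the co-receptor LRP6, at 12.3 and 10.7 RPKM, was 1.15-fold higher (1.09 to 1.23). Of 23 kept Dishevelled, destruction complex and nuclear partner genes 17 were higher (beside 54.9% of all genes) and 6 lower (median 0.093). The corepressor TLE3 (15.7 and 19.5 RPKM) and APC (4.57 and 3.59 RPKM) were farthest apart. Of 11 kept Wnt ligands and secreted inhibitors 5 were higher and 6 lower (median -0.026), with DKK3 at 5.50 and 7.47 RPKM farthest apart. None of these 34 signal and ligand genes was 1.5-fold apart.

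The largest ratios of the comparison belonged to genes outside the interferon and Wnt lists. SHISA3, which retains Frizzled and FGF receptors in the endoplasmic reticulum, was at 13.3 RPKM with RIPK4 (480 reads) and 1.73 RPKM with Wnt3a (63 reads), a ratio of 7.70 (5.91 to 10.2), with 31.6 RPKM in Vector, 28.6 with RIPK1, 6.76 with RIPK2 and 8.27 with RIPK3. CYP26A1, the enzyme that degrades retinoic acid, was at 4.42 RPKM (201 reads) and 0.218 RPKM (10 reads), a ratio of 20.3 (10.8 to 43), with 7.07 to 9.24 RPKM in the other 4 libraries. In both genes Wnt3a was the lowest of the 6 libraries and RIPK4 lay below Vector. HES3, a repressor of the Notch-related HES family, had 51 reads with RIPK4 and 12 with Wnt3a (4.05 and 0.943 RPKM, 4.30-fold, 2.26 to 8.85), with 5.74 RPKM in Vector.

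The remaining higher protein-coding genes have less connected functions. LZTS1, a leucine zipper protein studied as a tumour suppressor, was at 17.8 and 7.17 RPKM (2.48-fold, 2.27 to 2.71), and CCDC19, a cilium-associated protein, at 10.4 and 4.04 RPKM (2.58-fold, 2.14 to 3.12). CCDC19 stood at 4.17 RPKM in Vector, 11.5 with RIPK2 and 10.5 with RIPK3. The Wnt3a library was thus at the level of Vector for CCDC19, and RIPK4 was above it, as were RIPK2 and RIPK3. PP2D1 (98 and 23 reads) overlaps RAB5A, and GNG10 (117 and 38 reads) overlaps the read-through gene DNAJC25-GNG10, so both values are uncertain. The tubulin cofactor TBCA (28.5 and 13.4 RPKM) and MZT1 (15 and 6.16 RPKM), a partner of gamma-tubulin, had differences of 1.04 and 1.16. With the GC trend removed these became 0.77 and 0.88, under the 2-fold line.

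The 25 higher protein-coding genes were chosen for a low Wnt3a level beside RIPK4, so their place among the libraries is given as a description. Wnt3a was the lowest of the 6 libraries for 14 of them (2650 of all 11880 genes) and RIPK1 for the other 11 (2496 of all). RIPK4 was the highest for none. In 21 of the 25 the level ran from Vector down through RIPK4 to Wnt3a, beside 3324 of all genes. Their median transcript GC content was 43.4%, beside 48.8% for all genes, and GC content moves with the difference as given above. The 3 lower protein-coding genes were CDX1 and the histone genes HIST1H2BE (3 reads with RIPK4, 28 with Wnt3a) and HIST1H4E (7 and 25 reads). These histones have near-identical copies, and both values are uncertain.

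**Figure D4:**
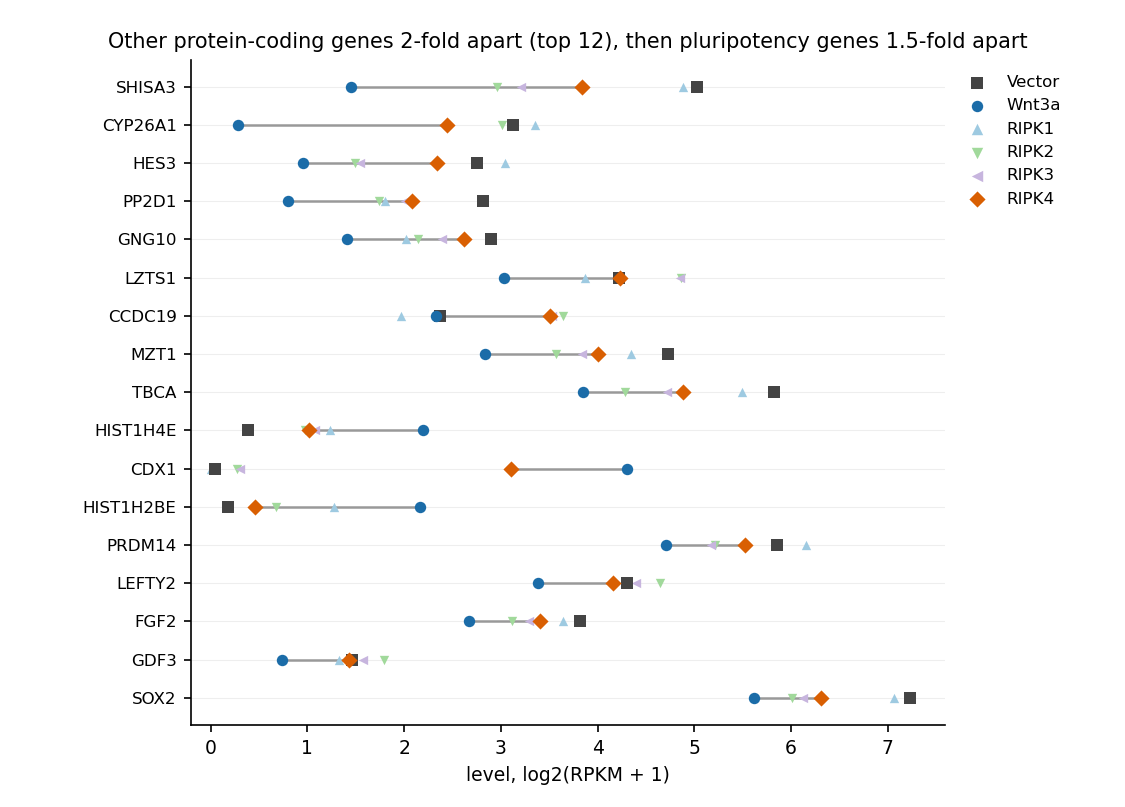
Level on the log2(RPKM + 1) scale in each of the 6 libraries of the 12 protein-coding genes at least 2-fold apart that are on neither interferon list (top), followed by the 5 pluripotency genes at least 1.5-fold apart. A grey line joins RIPK4 (orange diamonds) and Wnt3a (blue circles). For SHISA3, CYP26A1, HES3 and SOX2 the Wnt3a library is the leftmost and RIPK4 lies left of Vector (dark squares).

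Pluripotency genes were mostly higher with RIPK4 than with Wnt3a. Of 30 listed genes 21 were kept, 19 were higher (beside 54.9% of all genes) and 2 lower, with a median difference of 0.22. At least 1.5-fold higher were 5 (beside 1.37% of all genes). PRDM14, a repressor that guards the pluripotent state, was at 44.9 RPKM with RIPK4, 25.2 with Wnt3a and 56.8 in Vector (1.78-fold higher with RIPK4 than with Wnt3a, 1.65 to 1.93). SOX2 was at 78.1, 48.1 and 149 RPKM (1.62-fold, 1.54 to 1.71). In both genes RIPK4 lay between Wnt3a and Vector. With RIPK2 and RIPK3, PRDM14 was at 36.1 and 35 RPKM and SOX2 at 63.2 and 68.5 RPKM, also below Vector.

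FGF2, the growth factor that sustains primed pluripotent cells, was at 9.61 RPKM with RIPK4, 5.38 with Wnt3a and 13.1 in Vector (1.79-fold, 1.62 to 1.97). The Nodal inhibitor LEFTY2 was at 16.8, 9.44 and 18.8 RPKM (1.78-fold, 1.56 to 2.04). DNMT3B was 1.38-fold higher (1.32 to 1.45), POU5F1 1.18-fold (1.05 to 1.32) and LIN28A 1.06-fold (1.04 to 1.07). POU5F1, the OCT4 gene, was at 15.5 and 13.2 RPKM beside 13.0 in Vector, so it did not share the gap seen for SOX2. Wnt3a was the lowest of the 6 libraries for 10 of the 21 genes, beside 2650 of all 11880. The list median was 0.24 with the GC trend removed.

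Posterior and retinoid genes were mixed. Of 10 kept primitive streak and mesendoderm genes 4 were higher and 6 lower (median -0.077), with CDX1 and CDX2 lower and CER1, a secreted Nodal and BMP antagonist, at 68.9 and 44.9 RPKM (1.54-fold higher, 1.42 to 1.66). The retinoic acid carrier CRABP2 was at 171 RPKM with RIPK4, 269 with Wnt3a and 121 in Vector (1.57-fold lower with RIPK4 than with Wnt3a, 1.5 to 1.64). Thus CYP26A1 stood higher, and CRABP2 lower, with RIPK4 than with Wnt3a. Over the 12 kept retinoid genes 6 were higher and 6 lower, with a median near 0 (0.0091).

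TGF-beta and BMP targets included 3 of 25 kept genes past 1.5-fold on the RIPK4 side (beside 1.37% of all genes) and 0 on the other (beside 0.665%). ID1, an inhibitor of basic helix-loop-helix factors driven by BMP, was at 103 RPKM with RIPK4, 58.0 with Wnt3a and 131 in Vector (1.77-fold, 1.65 to 1.89), and ID4 at 36.8, 21.8 and 54.8 RPKM (1.69-fold, 1.56 to 1.84). The third was LEFTY2, already counted among the pluripotency genes. FST, which encodes the activin antagonist follistatin, was at 398, 523 and 345 RPKM (1.32-fold lower, 1.29 to 1.34). With RIPK1, RIPK2 and RIPK3, ID1 was at 97.2, 178 and 157 RPKM and ID4 at 35.3, 37.9 and 41.1 RPKM. ID1 was thus above Vector with RIPK2 and RIPK3 and below it with RIPK4. The list had 14 genes higher and 11 lower, with a median of 0.13. Of the other signalling lists, immediate early, AP-1 and ERK targets had 24 of 28 genes higher (median 0.13) with none 1.5-fold apart, and NF-kB targets had 8 of 16 higher (median 0.0059). Over all genes 54.9% were higher. CCL5, a chemokine gene also driven by interferon, was the NF-kB member 1.5-fold apart, at 2.89 RPKM with RIPK4, 1.23 with Wnt3a and 0.992 in Vector (65 and 28 reads, 2.35-fold, 1.49 to 3.80).

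Glycolysis and housekeeping genes were more often lower than higher with RIPK4, while cholesterol and fatty acid synthesis genes were close to even (13 higher and 17 lower, median -0.019). Of 31 kept glycolysis and hypoxia genes 25 had their lower level with RIPK4 and 6 had it with Wnt3a (median difference -0.18, and -0.12 with the GC trend removed). Over all genes 45.1% were lower with RIPK4. The aldolase gene ALDOC was at 9.69 RPKM with RIPK4, 16.0 with Wnt3a and 6.68 in Vector (1.65-fold lower, 1.43 to 1.92), and the lactate exporter gene SLC16A3 at 8.55, 11.2 and 3.35 RPKM. Of 29 housekeeping genes 21 were lower (median -0.14, and -0.17 with the GC trend removed), among them RPLP0 (478 and 606 RPKM). None of the housekeeping genes was 1.5-fold apart. The median of the Wnt list, -0.19, is thus close to those of the glycolysis and housekeeping lists. The order from Vector up through RIPK4 to Wnt3a was also common there, in 20 of 31 glycolysis and hypoxia genes and in 13 of 29 housekeeping genes, beside 25 of 36 Wnt targets and 20 of 34 extracellular matrix genes.

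Complex I and RNA polymerase III genes held members in opposite positions. Of 42 complex I genes 16 were higher and 26 lower, and 21 and 21 with the GC trend removed. NDUFS5 (334 and 528 RPKM) and NDUFS6 (148 and 214 RPKM) were 1.58-fold (1.51 to 1.65) and 1.45-fold (1.35 to 1.55) lower with RIPK4, while NDUFB6 (40.2 and 25.4 RPKM) was 1.58-fold higher (1.39 to 1.80). POLR3G, the RNA polymerase III subunit of undifferentiated cells, was at 24.8 RPKM with RIPK4, 14.1 with Wnt3a and 50.2 in Vector (1.76-fold higher, 1.62 to 1.92). Its paralogue POLR3GL was at 12.4, 19.2 and 15.4 RPKM (1.55-fold lower, 1.32 to 1.81). The remaining lists with at least 3 kept genes had medians between -0.11 and 0.16, and 11 of 22 kept p53 targets, 9 of 17 heat shock genes and 18 of 37 replication and mitosis genes were higher.

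**Figure D5:**
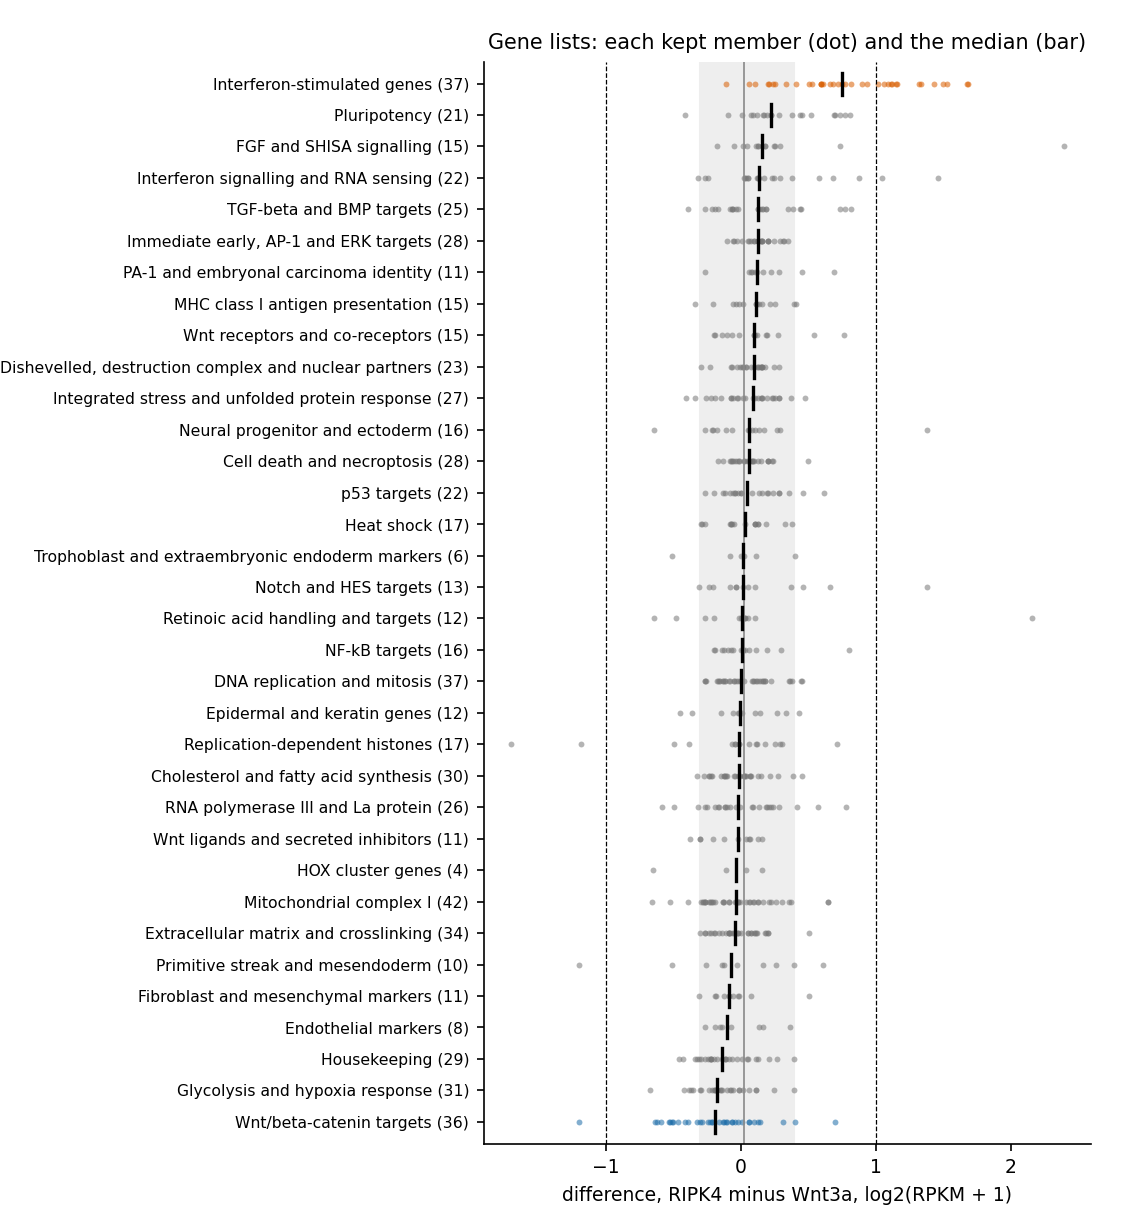
Difference of log2(RPKM + 1), RIPK4 minus Wnt3a (horizontal axis), for each kept member (dots) of the lists with at least 3 kept genes, with the list median (black bar) and the number kept in brackets. The grey band spans the 5th to 95th percentile of all 11880 genes (-0.31 to 0.40) and dashed lines mark 2-fold. The interferon-stimulated list (orange) has its median of 0.75 outside the band, and every other list, with the Wnt/beta-catenin targets (blue) at -0.19, has its median inside.

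Small RNAs made up 24 of the 52 genes at least 2-fold apart, 10 higher and 14 lower with RIPK4. They were mostly nucleolar RNAs (22 of 24), which guide modification of ribosomal RNA. Of the 24, 22 had under 20 reads in both libraries, and the counting interval of the ratio included 1 for 19. At this depth most of them were not resolvable as different between the libraries.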

How the data were processed

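The deposited table gives 1 RPKM value per gene and library, as computed by the authors, with 5 significant digits and no pooled columns, per the file headers. GSNAP, DESeq and hg19 appear in the submitters' processing notes. What each was used for, its version, the gene models and the counting rule: not given in the sources used here. Groups were taken from the sample labels, with 1 library each.

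RPKM was used without further scaling. Genes with a mean of at least 1 RPKM over the 6 libraries were kept, RIPK4 excepted, and differences were taken after a pseudocount of 1. Whole reads were recovered from the ratios of RPKM values between libraries, trying lengths of 15 to 30000 bases. All 6 values were whole within the rounding of the printed digits for 16624 genes, among them 11234 of the 11881 genes above the limit (94.6%). On data simulated for all 20494 genes at similar depths, 98.8% of the genes solved had the true reads. Reads of the other genes, among them IFIT1, ISG15, POU5F1 and CCND1, are approximate and rest on GENCODE 29 transcript lengths or the best length found. Solved lengths were a median of 1.031 times the GENCODE lengths. The reads give each ratio its exact binomial (Clopper-Pearson) 95% interval. Transcript GC content came from GENCODE 29, and a lowess trend (span 0.3, statsmodels 0.14.6) was removed as an alternative. Gene classes and promoters came from RefSeq, matched by gene identifier (20382 of 20494 genes for classes). Python 3.11.15, pandas 2.3.3 and scipy 1.17.1 were used.

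The text names RIPK4, AXIN2, LEF1, NKD1, SP5, T and DKK1, every protein-coding gene at least 2-fold apart, kept members of the Wnt target and interferon-stimulated lists, and up to 6 members of each other list with the largest differences, with a few further list members where a comparison called for them. A few genes that the rule would name are not reported here. The members and all 35 lists were chosen with earlier results of these data known. Alternatives were a pseudocount of 0.1, limits of 5 RPKM, of 20 reads or none, median-ratio size factors, removal of the GC trend and protein-coding genes alone.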

Additional observations from a re-analysis of the deposited data

How the results depend on the processing

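The count of genes at least 2-fold higher with RIPK4 than with Wnt3a was 35 and reached 59 with a pseudocount of 0.1, which raises differences of genes with few reads. The count of genes at least 2-fold lower was 17, and it was 30 with that pseudocount, 4 with a limit of 5 RPKM, 4 with at least 20 reads over both libraries and 3 among protein-coding genes alone, so small RNAs with few reads set most of it. The median of the interferon-stimulated list was 0.75, 0.90 with a pseudocount of 0.1 and 0.61 without a limit on low values, where 45 members entered. The median of the Wnt target list stayed below 0 under all 7 alternatives, from -0.22 to -0.091. Among 274 named genes, 5 left the 2-fold line with the GC trend removed (EIF2AK2, SAMD9, IFIT5, MZT1 and TBCA) and 3 crossed it with a pseudocount of 0.1 (SAMD9L, GDF3 and CCL5). Of the 33 other lists, 6 had medians that changed sign with the GC trend removed and 7 of 32 did with a limit of 5 RPKM. No paired analysis was possible because each group has 1 library, and no left-out library could be tried for the same reason.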

Other observations

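Outside the lists, 68 protein-coding genes lay between 1.5-fold and 2-fold higher with RIPK4 than with Wnt3a and 28 lay as far lower. The genes named here were chosen after their values were seen. Several of the higher ones are known interferon-responsive genes that the lists did not hold. PARP10 was at 20.5 RPKM with RIPK4, 9.79 with Wnt3a and 13.5 in Vector, the helicase gene DDX60L at 6.18, 2.84 and 8.01 RPKM, PRIC285 at 16.8, 8.86 and 10.1 RPKM, and the ubiquitin ligase gene TRIM25 at 37.7, 23.6 and 33.9 RPKM. A pair touches the Wnt pathway: SOST, which encodes the secreted LRP5 and LRP6 inhibitor sclerostin, was at 8.21 RPKM with RIPK4, 4.48 with Wnt3a and 8.14 in Vector, and FRAT2, which encodes a GSK3-binding protein, at 13.1, 7.64 and 15 RPKM. The receptor gene EPHA3 (13.8, 7.29 and 17.4 RPKM) and the synaptic adhesion gene NLGN4X (31.2, 16.9 and 43.6 RPKM) had Wnt3a lowest of these 3 libraries as well.

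Among the 28 lower genes were PALM3 (11.1 RPKM with RIPK4, 21.6 with Wnt3a and 7.13 in Vector), the histone chaperone gene NPM3 (61.0, 104 and 48.9 RPKM) and HMGB2, a chromatin protein gene (115, 186 and 173 RPKM). Ribosomal and translation genes were found on both sides, with RPL23A at 71.7 and 120 RPKM and RPS25, RPS10 and EEF1B2 at 498 and 305, 95.6 and 52.8, and 31.9 and 17 RPKM with RIPK4 and Wnt3a. These families have many near-identical pseudogene copies, and their values are uncertain. The median transcript GC content was 41.8% for the 68 higher genes and 56.6% for the 28 lower ones, beside 48.8% for all genes kept. With the GC trend removed, 39 of the 68 and 17 of the 28 were at least 1.5-fold apart, and the part of GC content in the rest was not tested.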
